A study of Mus musculus with 11 samples.

Results

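Arteries and veins of the brain are lined by endothelial cells that carry different sets of genes, and 8 such genes were followed here: the arterial genes Efnb2, Sox17, Unc5b, Bmx, Gkn3 and Sema3g and the venous genes Ephb4 and Nr2f2. They were taken by gene symbol from the 32287 genes of the deposited count tables, and each symbol matched 1 row. All 8 genes were detected in every mouse. Endothelial barcodes, meaning droplets with at least 4 unique molecular identifiers (UMIs) in all of Cldn5, Flt1 and Itm2a together, numbered 43685 of the 66658 deposited, and 40205 of these remained after filters on quality and doublets. A UMI stands for 1 captured mRNA molecule, and a gene is called detected in a barcode with at least 1 UMI.

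In the developing vessel wall, Notch signalling together with SoxF transcription factors such as SOX17 drives the arterial programme, whereas the nuclear receptor COUP-TFII, encoded by Nr2f2, holds the venous identity and represses Notch genes. Ephrin-B2, encoded by Efnb2, is a membrane-bound ligand of arterial cells and its receptor EphB4, encoded by Ephb4, is carried by venous cells, so that contact between the cells keeps arteries and veins apart. UNC5B is a netrin receptor, BMX is a kinase of the Tec family and SEMA3G is a secreted semaphorin of arterial endothelium. GKN3 is a secreted gastrokine that marks brain arteries in mice. In the adult brain these genes grade along the vessel tree from artery through capillary to vein.

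The libraries came from mouse cerebral vessels, 1 library per mouse, made on the 10x Genomics platform after vessel fragments had been pulled down with CD31 beads, CD31 being a protein on the surface of the endothelium. The 6 R182C-TgN3 (CADASIL) mice carry human NOTCH3 with the R182C variant as a transgene and the 5 WT-TgN3 (control) mice carry the same transgene without it, so both groups have human NOTCH3 beside their own Notch3. The CADASIL mice were 6 months (3 mice) or 9 months old (3 mice), 4 females and 2 males, and the control mice were 6 months (3 mice) or 9 months old (2 mice), 3 females and 2 males. All were untreated. They were prepared in 4 batches: batches 1 and 3 held 2 mice of each genotype, batch 4 held 1 of each and batch 2 held 1 CADASIL mouse alone. Human NOTCH3 in smooth muscle barcodes ran from 199 to 349 CPM (UMIs of a gene scaled to an equal total) in R182C-TgN3 mice. In WT-TgN3 mice it ran from 15.1 to 70.7 CPM. Human NOTCH3 was thus found in every library, and its level differed between the genotypes. These counts do not read the variant itself, so the genotype of each mouse rests on its label. Mice are numbered within their genotype.

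Libraries held between 17550806 and 64215050 UMIs, and between 2150 and 6183 endothelial barcodes with a median of 3193 to 7680 UMIs each. A few UMIs of a gene are easily missed at this depth, so for shares of barcodes each one was thinned to 2000 UMIs and the 3536 shallower ones were left out, which kept 36669 barcodes, from 1812 to 5889 per mouse. Other endothelial genes bore out the label of the gate: Pecam1 was found in 75.1% ± 4.28 (SD, n = 11 mice) and Slc2a1 in 78.1% ± 3.08 of the thinned barcodes. Among the distinct barcode sequences, 376 (0.948%) occurred in more than 1 library. R182C-TgN3 mouse 4 stood apart from the other libraries. In it 15.8% of the endothelial barcodes held smooth muscle UMIs (Acta2, Myh11, Tagln, Cnn1) at 1 or more for every 3 endothelial gate UMIs, against 0.198% to 3.51% in the other 10 mice, and 25.5% held Acta2 after thinning. WT-TgN3 mouse 1, of the same batch, had the next highest smooth muscle share. Results that rest on mouse 4 are given with and without it.

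Promoters are shown for Bmx, Gkn3 and Sema3g, the 3 arterial genes whose pairs exceeded by most what their separate shares would give, and for Nr2f2, which was found with them less often than its share would give. Each is the window from 250 bases before to 50 bases after the RefSeq gene start, on GRCm38.p6, read 5′ to 3′ on the strand of the gene. Capitals mark a match to the core of the RBPJ site (TGGGAA, or TTCCCA on the other strand), the site of the DNA-binding partner of Notch.
Bmx, chrX:164258144-164258443, minus strand: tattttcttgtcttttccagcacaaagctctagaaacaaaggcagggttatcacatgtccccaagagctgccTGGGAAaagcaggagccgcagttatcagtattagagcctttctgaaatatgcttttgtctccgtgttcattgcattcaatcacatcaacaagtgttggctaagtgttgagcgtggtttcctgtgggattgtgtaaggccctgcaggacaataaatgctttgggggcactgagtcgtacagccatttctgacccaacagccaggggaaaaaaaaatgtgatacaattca
Gkn3, chr6:87388886-87389185, minus strand: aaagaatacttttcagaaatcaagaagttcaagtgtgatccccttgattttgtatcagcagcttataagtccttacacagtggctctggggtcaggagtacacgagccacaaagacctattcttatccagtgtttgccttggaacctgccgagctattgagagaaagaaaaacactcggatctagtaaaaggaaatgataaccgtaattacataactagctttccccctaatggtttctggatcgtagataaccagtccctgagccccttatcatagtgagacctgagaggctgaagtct
Sema3g, chr14:31217623-31217922, plus strand: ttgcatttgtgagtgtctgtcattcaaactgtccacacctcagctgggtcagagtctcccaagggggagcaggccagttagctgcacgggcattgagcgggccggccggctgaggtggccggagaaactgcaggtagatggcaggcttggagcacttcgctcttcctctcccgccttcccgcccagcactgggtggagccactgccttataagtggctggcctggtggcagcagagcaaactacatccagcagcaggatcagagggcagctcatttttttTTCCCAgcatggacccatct
Nr2f2, chr7:70366697-70366996, minus strand: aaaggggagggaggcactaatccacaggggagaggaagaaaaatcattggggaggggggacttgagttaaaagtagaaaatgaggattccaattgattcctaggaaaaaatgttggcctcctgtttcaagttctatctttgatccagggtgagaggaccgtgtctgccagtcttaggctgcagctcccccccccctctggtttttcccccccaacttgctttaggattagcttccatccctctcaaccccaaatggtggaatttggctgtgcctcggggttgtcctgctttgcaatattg

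Of the 8 genes, 7 had a promoter among the RefSeq windows, and Sox17 had none there. The RBPJ core lay in 2 of these 7 windows, 178 bases before the start of Bmx and 30 bases after that of Sema3g, and in 25.6% of all 32851 promoters. The SOX core ACAATG, searched on both strands, lay in 1 window, that of Unc5b, against 12.6% of all promoters. The nuclear receptor half-site AGGTCA, also searched on both, lay in 0 of the 7 windows and in 16.3% of all promoters. The windows differed in base composition. Those of Efnb2 and Unc5b were 72.3% and 69.7% G and C with 35 and 36 CpG pairs, whereas those of Bmx and Gkn3 were 44.7% and 42.7% G and C with 4 and 5 CpG pairs, beside a median of 52.7% and 7 pairs over all promoters. Nr2f2 had 2 CpG pairs in its window.

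In the mm10 annotation (GENCODE vM21) all 8 are protein-coding genes. The arterial genes are Efnb2 (chr8:8617434-8661242), Sox17 (chr1:4490931-4497354), Unc5b (chr10:60762593-60831581), Bmx (chrX:164192842-164258193), Gkn3 (chr6:87383256-87388935) and Sema3g (chr14:31217860-31230352). The venous genes are Ephb4 (chr5:137350109-137378669) and Nr2f2 (chr7:70351944-70366735).

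Arterial genes were found together in single endothelial barcodes more often than their separate shares would give, and after thinning Nr2f2 was found with them less often. For each pair the share of barcodes with both genes was divided by the product of the 2 shares in the same mouse, so that a ratio of 1 stands for independence. The 3 highest ratios joined Bmx, Gkn3 and Sema3g. Bmx and Gkn3 were found together in 2186 barcodes, a mean ratio of 3.90 ± 0.751 (SD, n = 11 mice), with values from 2.23 to 4.51. For Gkn3 and Sema3g the ratio was 3.44 ± 0.673, and for Bmx and Sema3g 3.05 ± 0.417. The lowest Bmx with Gkn3 ratio, 2.23, was that of R182C-TgN3 mouse 4, and the next lowest was 2.73 in WT-TgN3 mouse 1. These 2 mice also had the highest shares of barcodes with both genes, 10.5% in each. A ratio cannot exceed 1 over the larger of the 2 shares, so its ceiling is lower where a gene is common, as Sox17 is. All 11 mice were above 1 for these pairs. The ratios describe the barcodes and carry no test, since barcodes of 1 mouse share a library.

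Efnb2 and Unc5b joined the arterial genes less tightly. Efnb2 with Unc5b had a ratio of 1.92 ± 0.281, and with Bmx 2.04 ± 0.244. Unc5b with Sema3g had a ratio of 2.31 ± 0.308. Sox17, which was found in a large share of all endothelial barcodes, had ratios of 1.14 ± 0.0800 with Efnb2 to 1.37 ± 0.0780 with Sema3g. In all, 13 of the 15 arterial pairs were above 1 in all 11 mice, and the exceptions were Sox17 with Efnb2 and Sox17 with Unc5b, each above 1 in 10 mice.

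The 2 venous genes differed in this. In thinned barcodes Nr2f2 was found with each of the 6 arterial genes less often than independence would give in all 11 mice. Its ratio was lowest with Sema3g (0.254 ± 0.145) and Unc5b (0.266 ± 0.107), followed by Bmx (0.350 ± 0.167), Gkn3 (0.352 ± 0.250) and Efnb2 (0.378 ± 0.198), and highest with Sox17 (0.831 ± 0.0476). With each of them but Sox17, the mouse with the highest Nr2f2 ratio was R182C-TgN3 mouse 4. For Gkn3 it was at 0.930, against 0.0534 to 0.569 in the other mice. Ephb4 lay near independence with the arterial genes, from 0.704 ± 0.143 with Gkn3 to 1.05 ± 0.148 with Efnb2, its ligand, and its ratios with Bmx and Gkn3 were under 1 in all 11 mice. Ephb4 with Nr2f2 had a ratio of 1.15 ± 0.136 and was above 1 in 10 of 11 mice. These ratios moved with depth. Without thinning, Sox17 with Nr2f2 turned to 1.099 ± 0.0503, above 1 in all 11 mice, while the other 5 arterial genes stayed below 1 on average with Nr2f2, from 0.434 ± 0.186 (Sema3g) to 0.713 ± 0.108 (Efnb2), and Bmx and Gkn3 each exceeded 1 in 1 mouse. Ephb4 without thinning was at 0.991 ± 0.0733 with Gkn3, at 1.06 ± 0.0733 with Bmx (above 1 in 9 mice) and at 1.22 ± 0.0901 with Efnb2 and 1.13 ± 0.0755 with Sox17 (above 1 in all 11), so its thinned ratios under 1 do not hold there. Ephb4 with Nr2f2 was then at 1.54 ± 0.0969 and above 1 in all 11 mice.

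**Figure D1:**
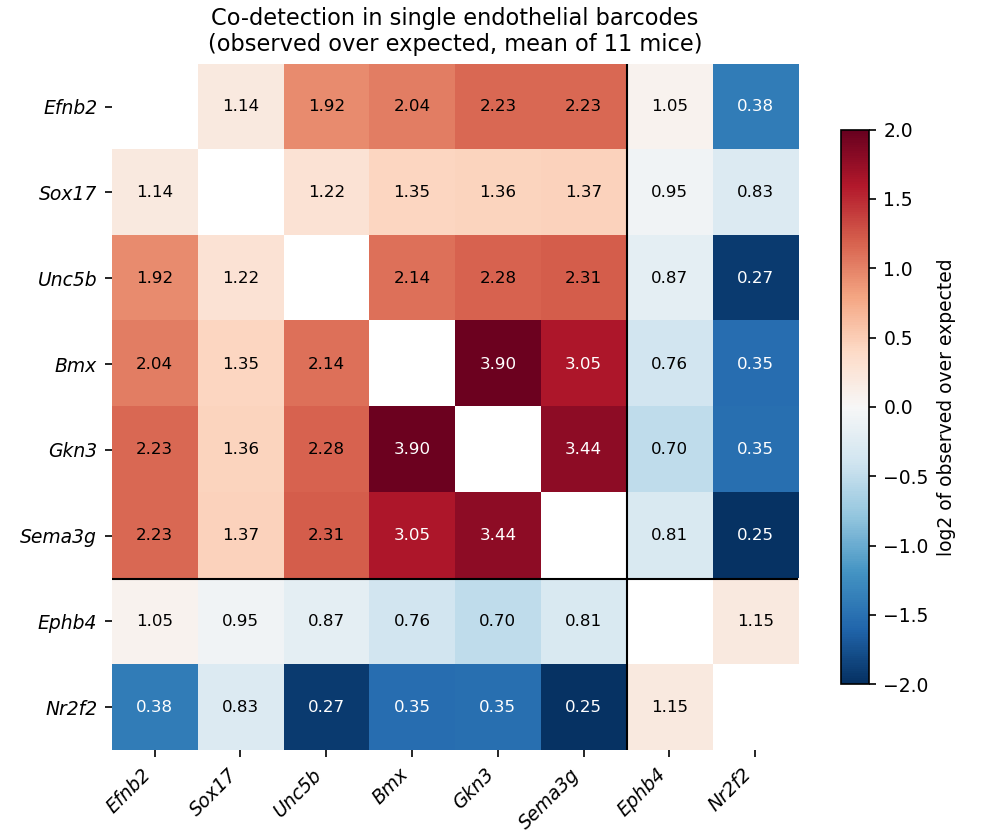
Observed over expected share of endothelial barcodes holding both genes of a pair, as the mean over 11 mice, with the colour giving its log2 and the black lines parting the 6 arterial from the 2 venous genes. The square of Bmx, Gkn3 and Sema3g holds the highest ratios (3.05 to 3.90), the Nr2f2 row the lowest (0.254 with Sema3g), and the Ephb4 row lies between 0.704 and 1.15, all after thinning to 2000 UMIs.

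Counted over whole barcodes, 45.5% ± 1.88 (SD, n = 11 mice) held at least 1 arterial gene and no venous gene, 12.2% ± 0.863 held a venous gene and no arterial gene, 12.0% ± 2.51 held both kinds and 30.3% ± 4.13 held none of the 8. Sox17 was the arterial gene in many of the barcodes with both kinds. With Sox17 left out of the arterial genes, the share with both kinds was 5.74% ± 2.30. Of the 36669 barcodes, 12314 (33.6%) held 1 arterial gene, 4493 (12.3%) held 2, 2563 (6.99%) held 3, 1175 (3.20%) held 4, 306 held 5 and 50 (0.136%) held all 6. Before thinning, barcodes with both kinds had a median of 5682.5 UMIs, between the 5129 of those with arterial genes alone and the 6410.5 of those with venous genes alone.

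Nr2f2 was found together with Bmx, Gkn3 or Sema3g in 540 barcodes, and 179 of these came from R182C-TgN3 mouse 4. Smooth muscle UMIs moved with this combination. They reached 1 for every 3 gate UMIs in 24.3% of the 540 barcodes, against 2.78% of the 4567 with Nr2f2 but none of the 3 arterial genes and 2.52% of the 8260 with the arterial genes but no Nr2f2. Without mouse 4 these shares were 20.2%, 1.55% and 1.29%. Barcodes with both formed 6.92% of the thinned endothelial barcodes of mouse 4 and from 0.386% to 2.99% of those of the other mice. With every barcode left out in which another cell type's marker list reached this level, they formed 4.52% in mouse 4 and from 0.233% to 1.04% in the others, so mouse 4 stayed above the other 10. What part the smooth muscle RNA has in the remaining overlap was not tested.

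To place the genes on the vessel tree, barcodes were sorted by marker genes that are not among the 8. Arterial-marked barcodes held at least 2 UMIs of Cytl1, Fbln5, Hey1, Stmn2, Vegfc and Gja5 and none of the venous markers. Venous-marked barcodes held at least 2 UMIs of a venous marker list, which includes Slc38a5, Vwf, Lrg1, Ackr1 and Il1r1, and none of the arterial markers. Capillary-marked barcodes held at least 2 UMIs of Mfsd2a, Rgcc, Spock2 and Slc16a1 and none of the other markers, mixed barcodes held both arterial and venous markers, and the rest were left unmarked. There were 3646 arterial-marked barcodes (from 156 to 664 per mouse), 9276 venous-marked, 9730 capillary-marked, 5743 mixed and 8274 unmarked.

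All 6 arterial genes were higher in arterial-marked than in venous-marked barcodes, and both venous genes were higher in venous-marked ones. The 2 sums of each mouse were compared with edgeR, with the mouse as a block. Of 12067 genes tested 6147 (50.9%) passed an adjusted p of 0.05, 3069 of them (25.4%) higher in arterial-marked and 3078 (25.5%) higher in venous-marked barcodes, so that passing the test is common here and the size of the difference tells more. All 8 genes passed it, with adjusted p-values from edgeR of at most 1.98e-09, the value of Ephb4. Adjusted p-values are after Benjamini-Hochberg throughout.

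Sema3g and Gkn3 had the largest differences of the 8, less than 1 SE apart. The level of Sema3g was 262 ± 43.6 CPM (SD, n = 11 mice) in arterial-marked and 5.59 ± 3.39 CPM in venous-marked barcodes, a log2 fold change of 5.56 ± 0.14 (SE), the 10th highest of all genes tested. Gkn3 was at 532 ± 106 CPM and 12.9 ± 10.6 CPM, a log2 fold change of 5.53 ± 0.21 and the 12th highest. The groups of 11 values did not overlap for either gene. Bmx, at 294 ± 60.7 CPM and 16.7 ± 8.83 CPM, and Unc5b, at 137 ± 21.8 CPM and 7.14 ± 1.61 CPM, had log2 fold changes of 4.23 ± 0.12 and 4.24 ± 0.08.

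Efnb2 followed with 170 ± 37.6 CPM in arterial-marked and 16.4 ± 2.05 CPM in venous-marked barcodes, a log2 fold change of 3.36 ± 0.08. Sox17, the transcription factor, was graded rather than split. It was at 476 ± 82.7 CPM and 204 ± 20.2 CPM, a log2 fold change of 1.22 ± 0.05, the 707th highest of the genes tested, and it was detected in 58.0% ± 6.34 of arterial-marked, 38.0% ± 2.78 of capillary-marked and 33.5% ± 2.75 of venous-marked barcodes.

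On the venous side the 2 genes differed in size. Nr2f2 was at 21.9 ± 12.1 CPM in arterial-marked and 255 ± 37.8 CPM in venous-marked barcodes, a log2 fold change of -3.64 ± 0.17, the 65th lowest of all genes tested. Ephb4 was at 50.6 ± 6.78 CPM and 81.1 ± 8.71 CPM, a log2 fold change of -0.68 ± 0.05. The highest arterial-marked Ephb4 value was 63.9 CPM and the lowest venous-marked value 66.9 CPM, so the groups did not overlap, although a 1.602-fold difference is small beside the 12.5-fold difference of Nr2f2.

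In capillary-marked barcodes the arterial genes kept different shares of their arterial detection. Efnb2 was detected in 23.3% ± 5.31 of arterial-marked, 12.3% ± 1.47 of capillary-marked and 2.97% ± 1.23 of venous-marked barcodes, and Unc5b in 21.4% ± 4.19, 9.68% ± 1.60 and 1.47% ± 0.617. For both genes the order arterial, capillary, venous held in 11 of 11 mice. Gkn3 instead fell off between artery and capillary, with 35.1% ± 3.07 of arterial-marked, 3.13% ± 1.08 of capillary-marked and 2.30% ± 2.75 of venous-marked barcodes, and Bmx did likewise with 36.9% ± 6.23, 4.83% ± 1.11 and 3.10% ± 1.97. Sema3g lay between them with 34.9% ± 5.20, 6.63% ± 0.996 and 1.28% ± 0.971. Capillary detection was above venous detection in 10 of 11 mice for Gkn3 and for Bmx. These orders are given as a description.

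Nr2f2 was detected in 30.05% ± 3.24 of venous-marked, 5.80% ± 0.900 of capillary-marked and 3.32% ± 2.81 of arterial-marked barcodes. In arterial-marked barcodes it ranged from 0.641% to 10.2%, and the highest value was that of R182C-TgN3 mouse 4 (20 of 196 barcodes). Ephb4 was detected in 14.3% ± 1.55 of venous-marked, 11.5% ± 1.69 of capillary-marked and 9.29% ± 2.58 of arterial-marked barcodes, and its arterial share was above its capillary share in 4 of 11 mice, so these neighbours in the order were not apart.

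Mixed barcodes, which held arterial and venous markers together, resembled arterial-marked ones in several of the genes. Gkn3 was detected in 38.1% ± 5.56 of them, Bmx in 32.1% ± 4.79 and Sema3g in 26.2% ± 2.52, while Nr2f2 was detected in 15.9% ± 4.82. Their share of the endothelial barcodes was 16.5% ± 6.76, with the highest value (33.04%) in R182C-TgN3 mouse 4, and their median depth was 6077 UMIs against 5118 UMIs for all others.

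**Figure D2:**
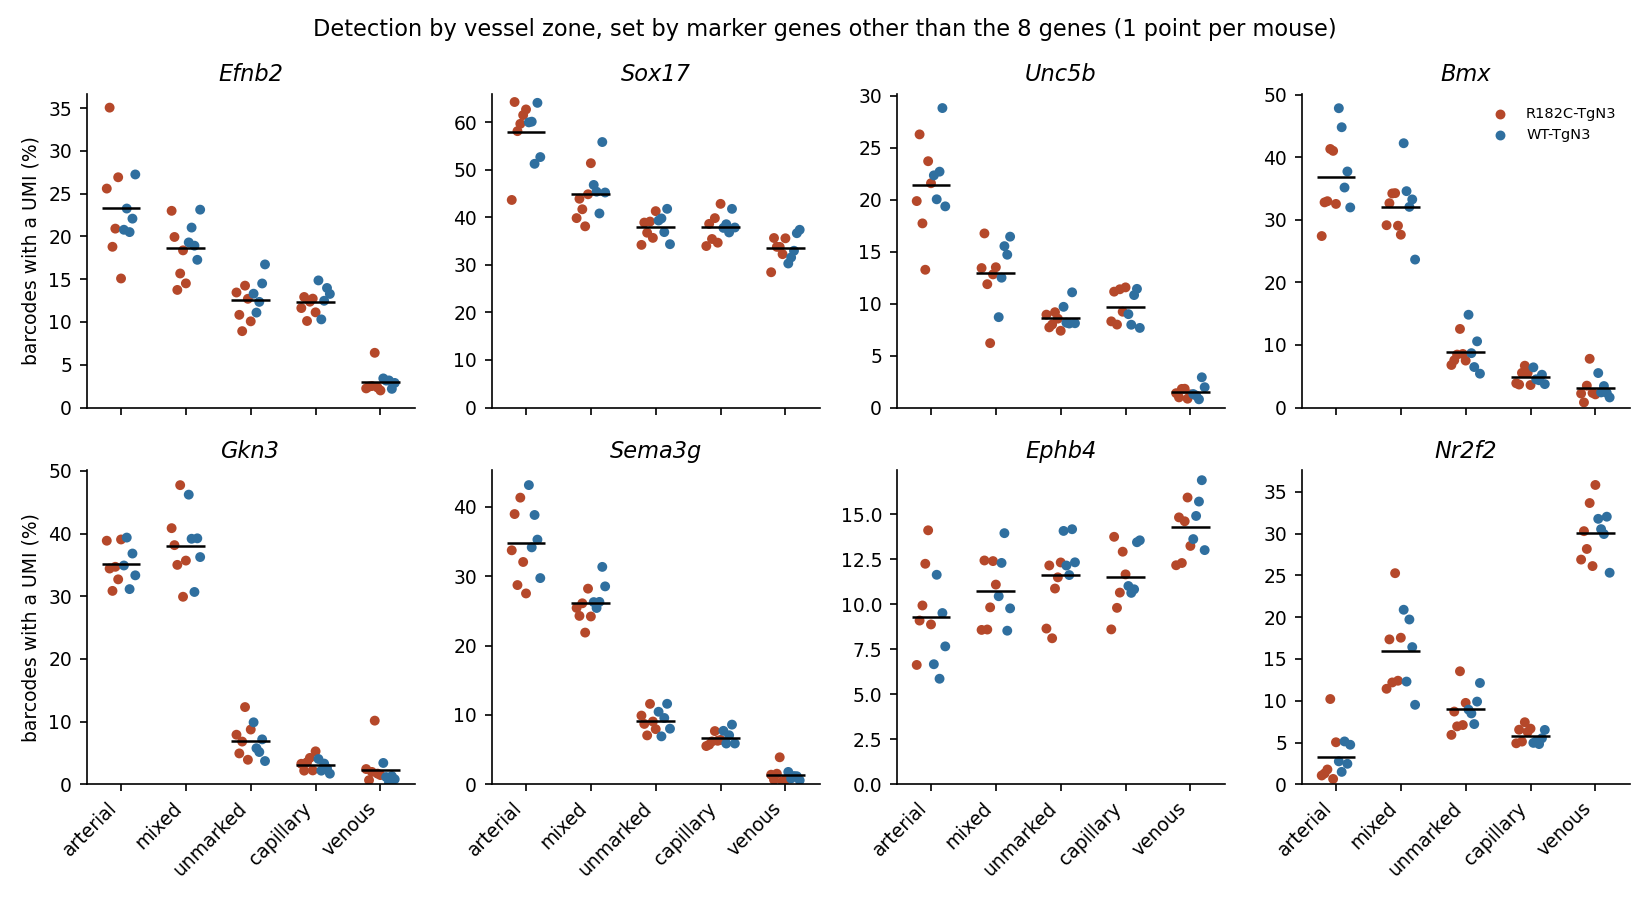
Share of barcodes with a UMI of each gene (%) by vessel zone, 1 point per mouse coloured by genotype, with a bar at the mean of the 11 mice. Gkn3, Bmx and Sema3g are highest in arterial and mixed barcodes, Efnb2 and Unc5b step down through the capillary barcodes, Nr2f2 is highest in venous ones (30.05%) and Ephb4 changes little (9.29% to 14.3%).

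Genes that act with the 8 were read in the same comparison. Of 57 such genes 44 passed the filter on low counts, 21 were higher in arterial-marked and 16 higher in venous-marked barcodes. Over all 12067 genes tested these shares were 25.4% and 25.5%. Among the lists below, the netrin list (2 and 1 of 6 genes) and the SoxF and COUP-TF list (1 and 1 of 4) lay near them. Among ephrins and Eph receptors 4 of 5 were higher in arterial-marked barcodes, led by the ligand gene Efna5 (log2 fold change 3.50 ± 0.23, from 5.12 ± 3.11 CPM in venous-marked to 51.9 ± 16.7 CPM in arterial-marked barcodes), and the receptor gene Epha4 was higher in venous-marked ones (-0.61 ± 0.04). Median log2 fold changes were 0.45 over these 5 genes and -0.01 over all genes tested.

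Receptors and binding partners of semaphorins and netrins lay on both sides. Of 6 semaphorin receptor genes 4 were higher in venous-marked barcodes, and Nrp2, a coreceptor for semaphorins and VEGF, differed most (23.9 ± 12.96 CPM in arterial-marked and 335 ± 49.3 CPM in venous-marked barcodes, log2 fold change -3.85 ± 0.17), followed by Plxna4 (-1.70 ± 0.10). Plxnd1 and Plxna2 were higher in arterial-marked barcodes (0.54 ± 0.04 and 0.52 ± 0.06). Among the netrin and UNC5 partners Flrt2, whose protein binds UNC5 receptors, was at 533 ± 95.6 CPM in venous-marked and 18.5 ± 18.9 CPM in arterial-marked barcodes (-4.94 ± 0.21), the reverse of Unc5b, while the netrin gene Ntn4 was higher in arterial-marked ones (2.46 ± 0.14). The other tested gene of this list that passed was Neo1 (0.52 ± 0.07), and 3 did not pass.

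Relatives of the members moved unevenly. Sox18, which belongs to the SoxF group with Sox17, was higher in arterial-marked barcodes (1.01 ± 0.05) and Sox7, the remaining SoxF gene, was slightly higher in venous-marked ones (-0.21 ± 0.04), while Nr2f1 and Nr2f6 did not pass. The Tec kinase genes Tec (1.603 ± 0.085) and Txk (0.94 ± 0.26) were higher in arterial-marked barcodes, as was Bmx. The gastrokine genes Gkn1 and Gkn2 did not pass the filter on low counts. Of the 12 genes of the arterial Notch programme 10 were higher in arterial-marked barcodes, with Gja4 (4.69 ± 0.18), Dll4 (2.65 ± 0.08) and Jag2 (2.16 ± 0.06) among them. The other 2, named after their values were seen, were Hes1 (-0.15 ± 0.04) and Foxc1 (-0.41 ± 0.04), higher in venous-marked ones. Of 8 venous and lymphatic genes 7 were higher in venous-marked barcodes, including the adhesion molecule gene Icam1 (-3.21 ± 0.09), and their median was -2.78. Emcn was the one that did not pass (0.01 ± 0.04).

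The genes that followed each member most closely were found from the correlation of thinned log counts across the barcodes of a mouse, averaged over the 11 mice, among 10467 genes detected in at least 1% of barcodes. Barcodes of a mouse share a library, and the values are a description. Mgp, an inhibitor of calcification, was the closest gene to Gkn3 (mean r = 0.580) and to Bmx (0.441). Vegfc, a growth factor that is also a marker of the arterial zone, had rank 3 for both (0.429 and 0.344). Sema3g was closest to Gkn3 (0.325), Vegfc (0.317) and Mgp (0.311). Egfl8 was second for Gkn3 (0.472) and Gkn3 was second for Bmx (0.406).

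The other members had weaker neighbours. Efnb2 and Unc5b shared Arl15 as their first (0.230 and 0.181), and Glul, the glutamine synthetase gene, was first for Sox17 (0.177) and the third for Unc5b (0.165). The genes close to Nr2f2 included Il1r1 (0.263), a marker of the venous zone, and Gm5127 (0.256). For Ephb4 no gene exceeded 0.0888, the value of Plvap, and a correlation this weak in sparse counts is no finding by itself.

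Plvap forms the diaphragms of fenestrated endothelium, which brain vessels lack outside the choroid plexus and a few other sites. It was detected in 1684 thinned endothelial barcodes, and these were compared with the rest after Plvap had been seen beside Ephb4. Ephb4 was detected in 24.1% ± 4.97 of the barcodes with Plvap and in 11.2% ± 1.21 of those without (SD, n = 11 mice), and Efnb2 in 35.2% ± 9.07 and 11.01% ± 1.66. Both were higher with Plvap in 11 of 11 mice. Sox17 went the other way with 10.9% ± 4.91 and 41.3% ± 3.39, as did Bmx (2.38% ± 3.01 and 13.5% ± 3.90), Gkn3 (1.99% ± 2.97 and 13.4% ± 4.52) and Sema3g (6.12% ± 3.16 and 12.0% ± 2.05), each lower with Plvap in 11 of 11 mice. Nr2f2 was detected in 6.81% ± 8.46 and 14.5% ± 3.22 and was higher with Plvap in 1 of 11 mice. In these barcodes the ephrin ligand and its receptor were thus both frequent while the other arterial genes, Unc5b apart (7.23% ± 3.08 and 9.01% ± 1.43), were scarce.

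Outside the endothelium the 2 venous genes again parted. Barcodes of other classes were taken where 1 marker list led and all other lists held under 1 UMI for every 3 of it. Nr2f2 was detected in 58.9% ± 6.13 (SD, n = 11 mice) of smooth muscle barcodes and in 59.2% ± 9.10 (n = 10 mice) of pericyte barcodes, against 13.5% ± 2.23 of endothelial barcodes chosen in the same way, and in 78 of 98 fibroblast barcodes. Ephb4 was detected in 1.69% ± 1.24 of smooth muscle and 4.08% ± 3.00 of pericyte barcodes, against 12.2% ± 1.32 in the endothelium. Unc5b was detected in 19.0% ± 5.41 of pericyte barcodes, above its 9.08% ± 1.26 in the endothelium, and in 0.527% ± 0.599 of smooth muscle barcodes.

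Sox17, Bmx, Gkn3 and Sema3g were less frequent in mural barcodes than in the endothelium, with at most 1.80% ± 1.98 (Sox17) in smooth muscle and 1.53% ± 1.83 (Bmx) in pericyte barcodes, and Sema3g was found in 0 of 438 thinned pericyte barcodes, which allows a share with a UMI of up to 0.685% at this depth and sets no limit on pericytes that express it. Efnb2 was detected in 6.67% ± 2.14 of smooth muscle barcodes. Microglia were read as a class outside the vessel wall, and the source of their UMIs of these genes was not tested. Over 11974 thinned microglial barcodes, whose median depth of 5116 UMIs before thinning was close to the 4880 of the endothelial ones, 7 of the genes were detected in 0.117% (Sema3g) to 0.301% (Sox17), far below their endothelial shares. Efnb2 was the exception, with 416 of 11974 microglial barcodes (3.47%) against 4 of 583 B cell barcodes (0.686%, median depth 3811.5 UMIs).

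**Figure D3:**
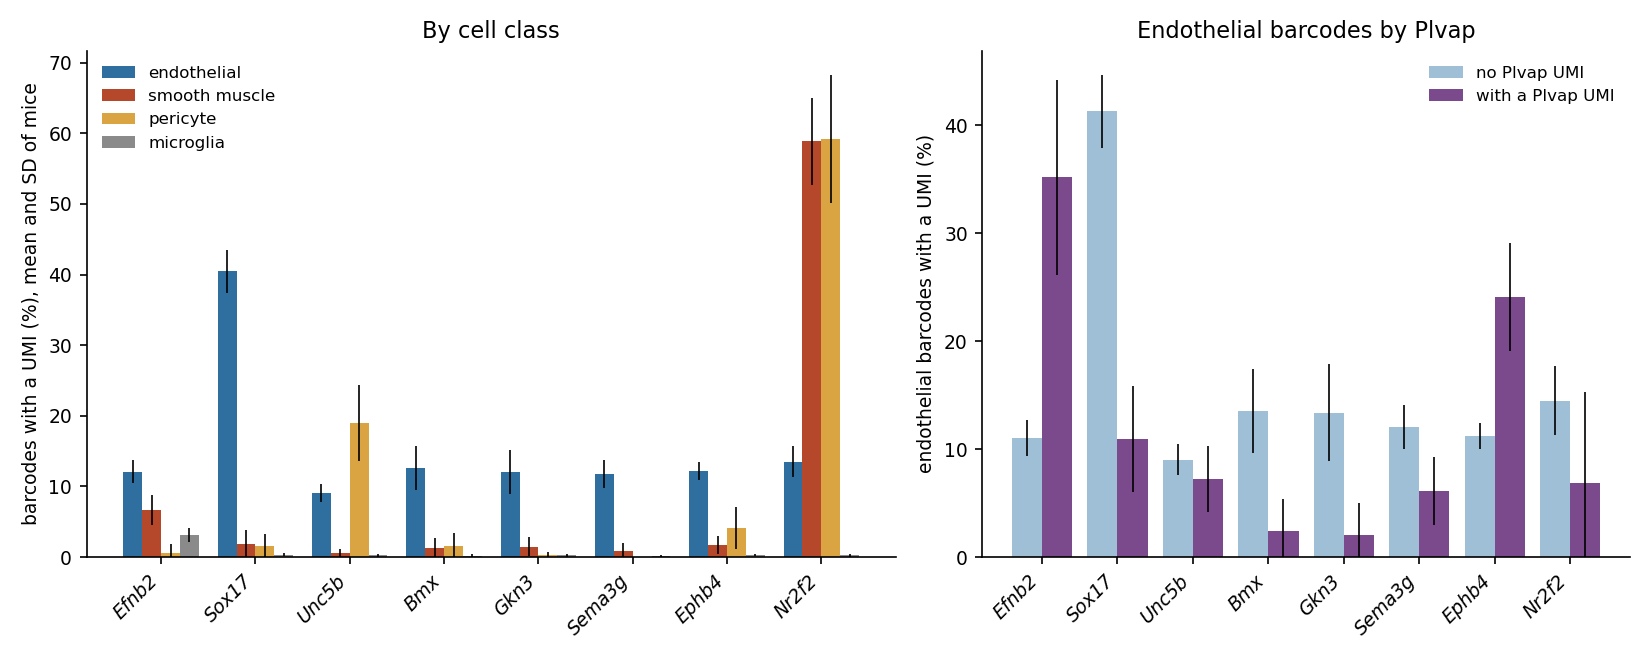
Left, share of thinned barcodes with a UMI of each gene (%) in endothelial, smooth muscle, pericyte and microglial barcodes, as the mean and SD over mice. Right, the same for endothelial barcodes with and without a Plvap UMI. Nr2f2 stands near 59% in both mural classes, and Efnb2 and Ephb4 are the only 2 of the 8 that are higher with Plvap.

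The genotypes were then compared, to ask whether mutant NOTCH3, which acts in mural cells, goes along with a change of arterial and venous genes in the neighbouring endothelium. No member differed between R182C-TgN3 and WT-TgN3 mice beyond the spread between mice. Differences in detection were tested with 2-sided exact permutation tests over the 462 splits of the mice, for which the smallest possible p is 0.00216, and 8 genes were compared. The lowest p among the 8 was 0.242, that of Efnb2.

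Efnb2 was detected in 13.5%, 11.4%, 11.9%, 12.7% and 14.4% of thinned endothelial barcodes in WT-TgN3 mice 1 to 5, and in R182C-TgN3 mice its lowest share was 8.88%, the median 12.3% and the highest 13.5%. The groups overlapped, with a difference of -1.26 percentage points (exact permutation test, p = 0.242) and of -0.737 within batches (p = 0.333). Plvap was detected in 2.45% to 4.90% of thinned endothelial barcodes in R182C-TgN3 mice and in 4.52% to 9.79% in WT-TgN3 mice. What part this has in the Efnb2 and Ephb4 differences was not tested. Unc5b was at 8.54%, 8.16%, 9.49%, 11.8% and 8.74% in WT-TgN3 mice and at 6.80%, 8.59% and 10.5% (lowest, median and highest) in R182C-TgN3 mice, which again overlapped (exact permutation test, p = 0.366). Sox17 was at 40.7%, 40.2%, 37.9%, 45.5% and 39.3% in WT-TgN3 mice and at 34.4%, 38.5% and 43.6% in R182C-TgN3 mice (exact permutation test, p = 0.400).

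Bmx and Gkn3 each had 1 high mouse in either genotype. Bmx was at 20.8%, 12.6%, 12.4%, 14.1% and 9.00% in WT-TgN3 mice, and in R182C-TgN3 mice at 9.78% (lowest), 11.3% (median) and 19.7% (highest). Gkn3 was at 18.5%, 10.9%, 10.4%, 13.3% and 9.21% in WT-TgN3 mice, and at 8.66%, 11.6% and 23.8% in R182C-TgN3 mice. The highest mice of both groups, R182C-TgN3 mouse 4 and WT-TgN3 mouse 1, came from batch 3 and were those with the most smooth muscle UMIs. The mean differences were -1.39 percentage points for Bmx (exact permutation test, p = 0.524) and 0.762 for Gkn3 (p = 0.790). Without R182C-TgN3 mouse 4 they became -2.84 and -1.36.

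Sema3g was at 14.9%, 10.1%, 12.5%, 14.3% and 10.3% in WT-TgN3 mice and at 9.50%, 10.7% and 14.5% (lowest, median and highest) in R182C-TgN3 mice (exact permutation test, p = 0.310). Ephb4 was at 11.7%, 12.3%, 12.4%, 13.2% and 12.0% in WT-TgN3 mice and at 9.31%, 11.8% and 13.4% in R182C-TgN3 mice (exact permutation test, p = 0.340). Nr2f2 was at 15.9%, 12.4%, 14.6%, 14.4% and 12.3% in WT-TgN3 mice and at 11.2%, 13.3% and 21.8% in R182C-TgN3 mice (exact permutation test, p = 0.827). Within batches the differences of the 7 genes other than Efnb2 ran from -1.41 percentage points (Sox17) to 1.19 (Gkn3), with exact permutation p-values of 0.444 or more. The highest Nr2f2 value was that of mouse 4 and became 19.1% once barcodes with another type's marker list at 1 UMI for every 3 gate UMIs were left out, still the highest of the 11. Without mouse 4 the Nr2f2 difference turned from 0.636 to -0.809 percentage points.

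**Figure D4:**
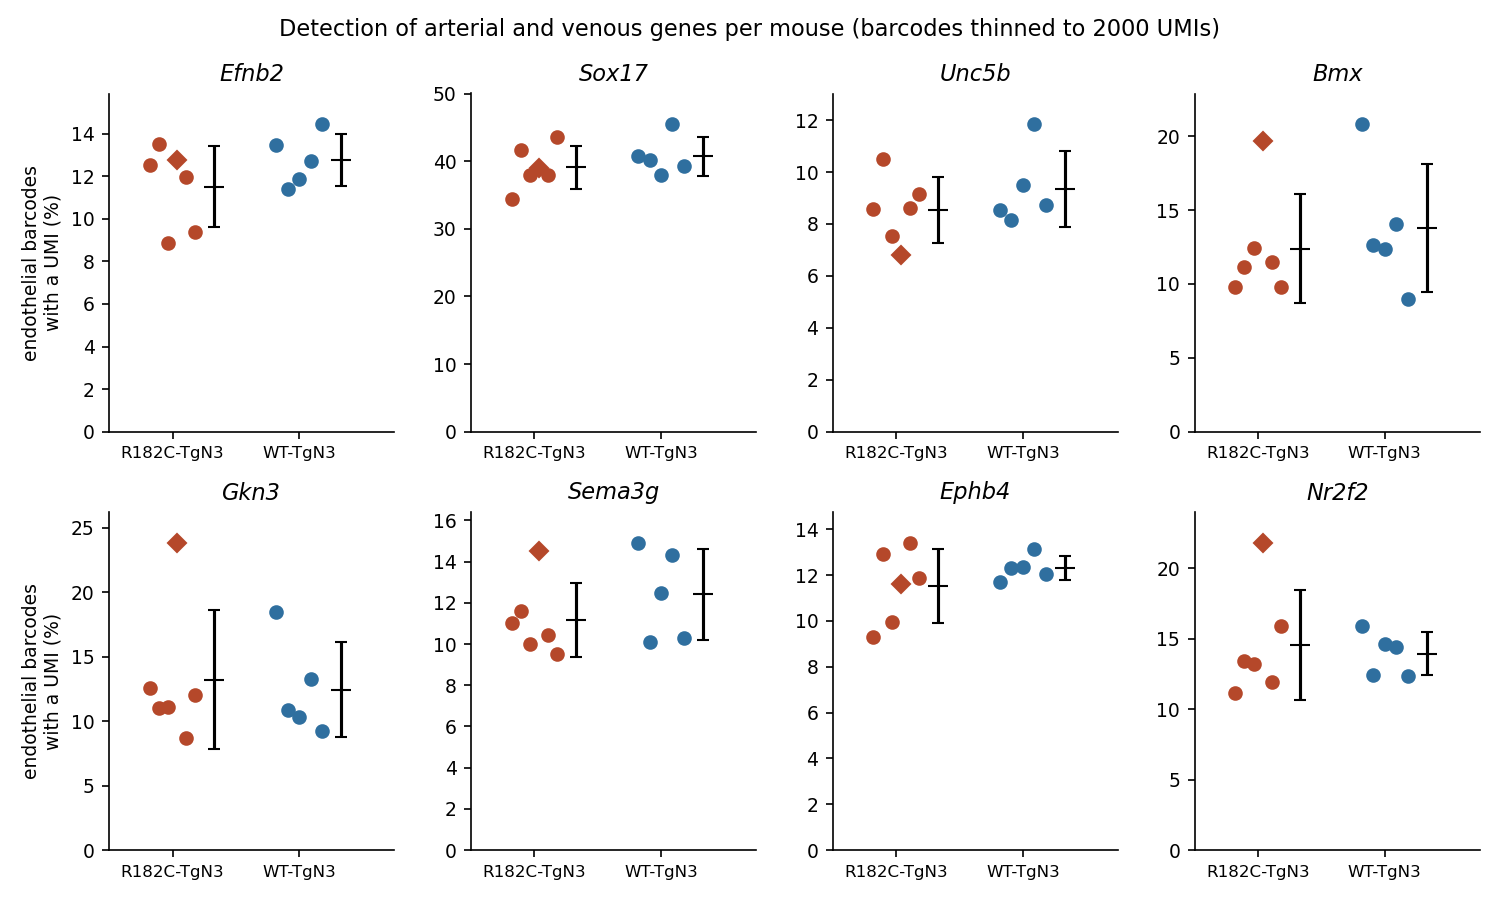
Share of endothelial barcodes with a UMI of each gene (%) after thinning to 2000 UMIs, 1 point per mouse, with the mean and SD of each genotype beside it. The diamond is R182C-TgN3 mouse 4, the highest of its group in Bmx (19.7%), Gkn3 (23.8%), Sema3g and Nr2f2, and the genotypes overlap in all 8 panels.

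The share of barcodes with arterial and venous genes together did not differ between the genotypes beyond the spread of the mice. It was 12.0% ± 3.39 (SD, n = 6) in R182C-TgN3 and 12.1% ± 1.17 (n = 5) in WT-TgN3 mice (exact permutation test, p = 0.968), a difference of -0.0961 percentage points. This near equality rests on R182C-TgN3 mouse 4, at 18.3%. The other R182C-TgN3 mice ran from 8.81% to 12.9% and the WT-TgN3 mice from 10.6% to 13.3%. Without mouse 4 the R182C-TgN3 mean was lower by more than the WT-TgN3 SD, and the groups still overlapped. The ratios of observed to expected pairs are given as a description in the order R182C-TgN3 and WT-TgN3, with 3.90 ± 0.848 and 3.89 ± 0.716 for Bmx with Gkn3 and 0.258 ± 0.187 and 0.249 ± 0.0958 for Sema3g with Nr2f2. Ephb4 with Nr2f2 was at 1.08 ± 0.143 and 1.23 ± 0.0643, and Sema3g with Ephb4 at 0.879 ± 0.144 and 0.731 ± 0.126. Gkn3 with Ephb4 was at 0.791 ± 0.0811 and 0.6005 ± 0.135. It ran from 0.712 to 0.948 in R182C-TgN3 mice and was 0.575, 0.813, 0.624, 0.447 and 0.543 in WT-TgN3 mice 1 to 5, of which 4 lay below all R182C-TgN3 mice, and it was picked out after its values were seen and not tested.

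Summed UMIs were compared next. In edgeR's quasi-likelihood test over all endothelial barcodes 0 of 13654 genes (0%) passed an adjusted p of 0.05, while 214 had an unadjusted p under 0.05, and DESeq2 called 0 with 208. Here and in the genotype fits below, such counts at an unadjusted p under 0.05 were fewer than chance alone would give. The member values were log2 fold changes of -0.17 ± 0.13 (SE) for Sema3g, -0.13 ± 0.12 for Efnb2, -0.11 ± 0.22 for Bmx, -0.10 ± 0.08 for Ephb4, -0.04 ± 0.11 for Sox17, -0.04 ± 0.12 for Unc5b, 0.04 ± 0.23 for Gkn3 and 0.09 ± 0.13 for Nr2f2, each within 2 SE of 0. None of the 51 partner genes tested passed. In this fit 1 value sums arteries, capillaries and veins, so fewer barcodes of a zone and less RNA per barcode cannot be told apart, and the 2 zones were therefore also fitted alone.

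Within arterial-marked barcodes 0 of 10173 genes (0%) passed in edgeR, with 203 at an unadjusted p under 0.05, and DESeq2 called 0 with 124. Member log2 fold changes lay between -0.09 ± 0.12 (Sema3g) and 0.10 ± 0.18 (Gkn3). Within venous-marked barcodes 0 of 11759 genes (0%) passed, with 205 at an unadjusted p under 0.05, and DESeq2 called 0 with 164. Gkn3, an arterial gene at a few CPM there, had the largest member value, 0.89 ± 0.49, from 9.00 ± 4.92 CPM in WT-TgN3 to 16.1 ± 13.3 CPM in R182C-TgN3 mice (edgeR adjusted p = 1.00), and mouse 4 with 41.9 CPM was the highest. Without mouse 4 the value was 0.38. The Ephb4 value was -0.14 ± 0.09 in venous-marked and 0.10 ± 0.13 in arterial-marked barcodes, and the test of the difference between the zones gave 0.22 ± 0.10 with an adjusted p of 1.00 in edgeR.

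**Figure D5:**
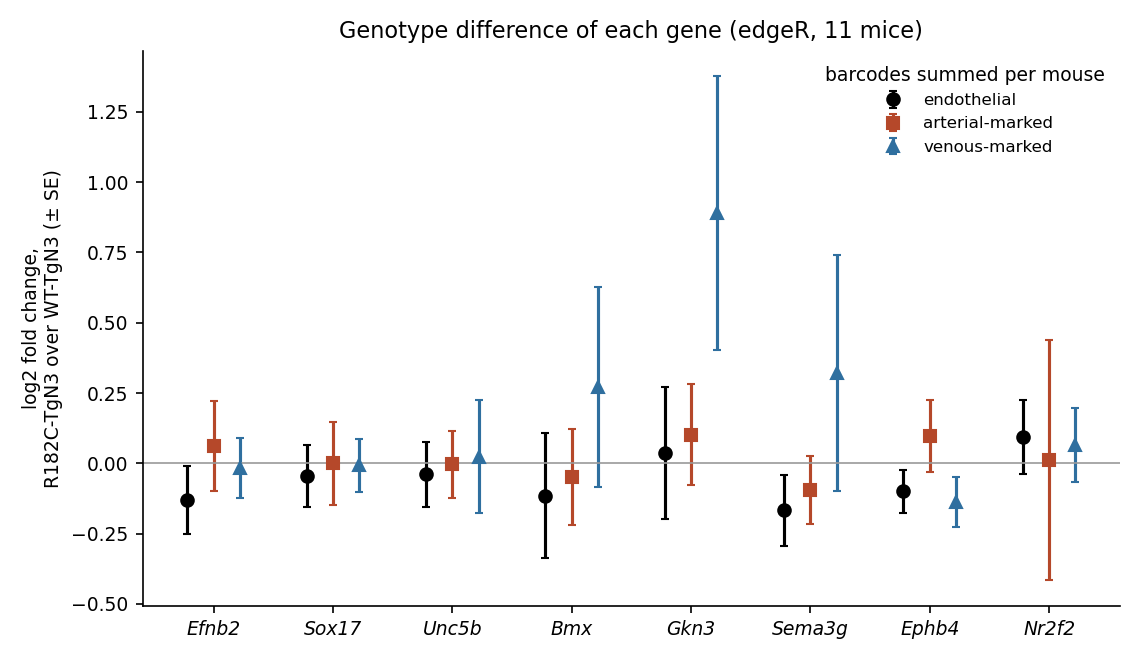
Log2 fold change of each gene between R182C-TgN3 and WT-TgN3 mice with its standard error, from edgeR on UMIs summed per mouse over all endothelial, arterial-marked or venous-marked barcodes (11 mice each). Most values lie near 0 with the widest errors for arterial genes in venous-marked barcodes, where Gkn3 is at 0.89 ± 0.49.

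The share of barcodes in each zone did not differ between the genotypes in all 11 mice at a p of 0.05. Arterial-marked barcodes formed 9.24% ± 1.87 (SD, n = 6) of thinned endothelial barcodes in R182C-TgN3 and 10.5% ± 1.01 (n = 5) in WT-TgN3 mice (exact permutation test, p = 0.203). Venous-marked barcodes formed 26.2% ± 2.01 and 24.2% ± 1.34 (exact permutation test, p = 0.0952), and the p fell to 0.0397 without R182C-TgN3 mouse 2 and to 0.0476 without WT-TgN3 mouse 3. Within batches the venous difference was 1.39 percentage points (exact permutation test, p = 0.194) and the arterial difference was -0.903 (p = 0.0833). Capillary-marked barcodes formed 26.0% ± 5.46 and 26.2% ± 4.06 (exact permutation test, p = 0.965). Of genes tested for a genotype difference that changed with age or with zone 0 of 14408 and 0 of 12067 passed in edgeR, with 435 and 495 at an unadjusted p under 0.05.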

How the data were processed

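The deposited files held UMI counts per gene and barcode for 11 mice, which the authors made with Cell Ranger 7.0.0 on mm10 with human NOTCH3 added, and these counts were used without change. A floor of 500 detected genes and a ceiling of 10% mitochondrial UMIs left 61625 barcodes, and 3040 were removed by a doublet score from simulated doublets (rate of 0.8% per 1000 barcodes), which left 58585. Of these 40205 passed the endothelial gate, 262 had exactly 4 gate UMIs and 384 had 3. Total UMIs per library ran from 17550806 to 64215050, which sets the counting precision. The limit given for Sema3g in pericyte barcodes covers counting error only. SDs are over mice, and SEs from edgeR include the variation between mice. Zones were called on thinned counts, and a barcode with capillary markers could be arterial-marked or venous-marked. Zone sums and genotype sums used the full counts of these barcodes.

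The members, marker lists and partner lists were chosen with earlier results of these data known. Named were the 8 members, at most 5 partner genes per list that passed with the largest log2 fold changes, and the 3 genes that followed each member most closely. A gene among them is not reported here. Partner genes that did not pass, or were not tested, are named where few remained in a list, and were chosen after their values were seen. Sums per mouse were fitted with edgeR 4.0.16 (quasi-likelihood test, TMM, filter on low counts, Benjamini-Hochberg at 0.05) in R 4.3.3, with DESeq2 1.42.0 as an alternative. The fits held no ribosomal or mitochondrial genes and no Gm or Rik models, and the zone fit held none of the zone markers. Single shares were compared with 2-sided exact permutation tests in Python 3.11.15 (numpy 2.4.6, scipy 1.17.1, pandas 2.3.3, scikit-learn 1.9.0). The fits were tested on simulated data. Alternatives were other thinning, gates, filters, normalization, covariates, blocks and zones, and leaving out each mouse. That each library is 1 mouse comes from the labels. The authors left 1 control out of one of their comparisons, but the labels do not name it, so all 11 mice were used.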

Additional observations from a re-analysis of the deposited data

Results flagged for a closer look

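R182C-TgN3 mouse 4 was apart from the other 5 R182C-TgN3 mice in 2 of 24 sets of values in which 1 mouse apart was looked for (Dixon's test, which by chance marks about 1 set in 20). Bmx was detected in 19.7% of its thinned endothelial barcodes against 9.78% to 12.4% in the other 5 mice. Gkn3 was detected in 23.8% against 8.66% to 12.6%. With barcodes left out in which another cell type's marker list reached 1 UMI for every 3 gate UMIs, the values of mouse 4 were 18.7% and 19.7%. Smooth muscle UMIs at this level were found in 15.8% of its endothelial barcodes. Their part in the 2 values that remain was not tested.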

How the results depend on the processing

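All 8 members kept their direction and their side of the threshold between arterial-marked and venous-marked barcodes under all 21 alternatives, from 4.95 to 6.16 for Sema3g and from -1.08 to -0.32 for Ephb4 on the log2 scale. The number of genes that differed there fell from 6147 to 2171 when barcodes with any capillary marker UMI were left out, an alternative chosen after seeing the data that tests fewer genes (7436) on fewer barcodes. Of 476 ratios of the 28 pairs under alternatives, 6 crossed 1 and 11 moved by more than 1 SD. Those that crossed 1 were, without thinning, Sox17 with Nr2f2 (1.099) and Ephb4 with Sox17 (1.13), Unc5b (1.101), Bmx (1.06) and Sema3g (1.04), and, at 1000 UMIs, Efnb2 with Ephb4 (0.987). All 11 that moved did so with no thinning or thinning to 1000 UMIs.

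The genotype difference in barcodes with both kinds changed sign to 0.300 percentage points at 1000 UMIs, 0.0581 without thinning, 0.177 without barcodes carrying another type's list, and 0.293 both within batches and with the replicate block. Leaving out each mouse gave -1.36 (without R182C-TgN3 mouse 4) to 0.537 for it, -1.41 to 1.92 for capillary-marked and 1.39 to 2.51 for venous-marked barcodes (both zone shares chosen after seeing the data). For detection the same gave -2.84 to 0.372 for Bmx, -1.36 to 2.27 for Gkn3 and -0.809 to 1.32 for Nr2f2, each lowest without R182C-TgN3 mouse 4. None of these members had passed a test.

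Several member log2 fold changes between genotypes changed sign, and none passed under any alternative. The widest ranges below were those of Sema3g and Bmx in venous-marked and of Nr2f2 in arterial-marked barcodes, so their signs rested on single mice. Over all endothelial barcodes, leaving out each mouse gave -0.106 to 0.0329 for Sox17, -0.138 to 0.0411 for Unc5b, -0.26 to 0.102 for Bmx and -0.0579 to 0.209 for Gkn3. In arterial-marked barcodes it gave -0.0377 to 0.165 for Efnb2, -0.0861 to 0.0782 for Sox17, -0.0958 to 0.0837 for Unc5b, -0.166 to 0.0677 for Bmx, -0.149 to 0.00775 for Sema3g and -0.313 to 0.264 for Nr2f2, in venous-marked ones -0.0854 to 0.0239 for Efnb2, -0.0461 to 0.0441 for Sox17, -0.0799 to 0.147 for Unc5b, -0.112 to 0.426 for Bmx, -0.105 to 0.52 for Sema3g and -0.0252 to 0.119 for Nr2f2. With batch, sex and the replicate block in turn, Sox17 was at 0.0350, 0.0222 and 0.0283 and Unc5b at 0.0169, 0.0142 and 0.0175 in arterial-marked barcodes. With batch and the block Nr2f2 was at -0.131 and -0.140 there, and Unc5b at -0.0701 and -0.0850 in venous-marked ones. In these Efnb2 was at 0.00810 with batch and Sox17 at 0.00852 with sex.

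Same-numbered mice of the same age deviated together with r of 0.250, 0.152, 0.0437, 0.193 and 0.281 over 13654 genes, so that 1 of 5 pairs was not over 0.1 and the numbers were not taken as pairs. With the replicate block 1 gene passed in arterial-marked barcodes (Prl, lower in R182C-TgN3 mice) and 0 in the other genotype fits. The causes of these shifts were not tested.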
